A study of Drosophila melanogaster with 3 samples.

Results

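The genes that set up the dorsoventral axis of the *Drosophila melanogaster* embryo were examined for HmgD binding as a fixed list of 10: *dl*, *cact*, *zen*, *dpp*, *tld*, *brk*, *sog*, *rho*, *vnd* and *ind*. They were taken by name from the Ensembl annotation of the Release 6 (dm6) genome, and all 10 were found among the 18164 annotated genes on the chromosome arms. A peak was assigned to a gene when its summit, the position of highest signal, lay in the gene body or within 10 kb of it. HmgD, which bends DNA through its HMG box and has little sequence preference, was mapped by chromatin immunoprecipitation and sequencing in 3 biological replicates of 1 group. All replicates were whole embryos of both sexes aged 0 to 24 h from strain HmgD-GFP, a transgenic line that stably carries HmgD with a GFP tag at its C terminus, and the antibody recognised the tag. No untagged or second condition was included, and the control data were not used here. Chromatin of every tissue and every embryonic hour was therefore mixed in each replicate, and binding in the cells or hours in which these genes act cannot be told apart from binding elsewhere.

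The dorsoventral axis is read from a nuclear gradient of Dorsal, the NF-kappaB family factor encoded by *dl*. On the ventral side the Toll receptor triggers loss of Cactus, the IkappaB-like inhibitor encoded by *cact*, and Dorsal enters the nuclei. High nuclear Dorsal switches on mesodermal genes, and intermediate to low levels allow the neuroectodermal genes *vnd*, *rho*, *ind*, *brk* and *sog*, while Dorsal represses *zen*, *dpp* and *tld*, which remain active dorsally and direct BMP signalling there.

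The deposited lists held 28193, 30000 and 30000 candidate peaks for replicates 1, 2 and 3, and 30000 for the pooled replicates. A further list held 2964 peaks that passed a filter on the consistency of ranks between replicates, the irreproducible discovery rate (IDR). These were the 2964 pooled candidates of highest signal, with 114.7 as the lowest signal kept and 114.6 as the highest not kept. The signal is the authors' own value for each peak, and it was used to rank and describe peaks within a list. A rank of 1 is the strongest entry, and a rank percentile of 100 is the top of a list. Between replicates, 0.518% to 0.86% of summits sat at the same base. Sequencing depth is unknown from these files, and nothing could be tested between conditions, so all values below are descriptions.

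*cact* and *brk* were the members with an IDR peak at their own promoter, defined as 500 bp either side of an annotated transcription start site (TSS). That is 2 of 10 members, beside 15.5% of all genes and 18.7% of the 13945 protein-coding genes on the arms. Within the wider windows, *zen*, *brk*, *sog*, *cact* and *dpp* had an IDR summit, which is 5 of 10 beside 51.7% of all genes and 55.2% of protein-coding genes. Both shares were near those of all genes and are no result about these genes, and 10 genes are too few to show a difference or its absence. The window grows with the gene. Of protein-coding genes within 1.5 times the body length of a member, 49.1% (for *ind*) to 67.9% (for *dl*) had an IDR summit in the window. In the gene bodies themselves, *sog*, *cact* and *dpp* held an IDR summit, 3 of 10 beside 7.6% of all genes and 9.11% of protein-coding genes, and the bodies of these members are long, from 13172 bp in *cact* to 31452 bp in *dpp*. In total the 10 windows held 8 IDR summits among 95 pooled candidates.

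The sequence under each of the 8 IDR summits is shown because these peaks carry the account below, and they differ visibly in composition. Each run is 151 bp centred on the summit, read from the RefSeq copy of the Release 6 genome. Capitals mark matches, on either strand, to short words listed further below: GAGAG for the GAGA factor, CGATA for BEAF, CACATG for Twist, TATAAA, and a run of at least 7 A.
cact promoter, chr2L:16325754-16325904, plus strand: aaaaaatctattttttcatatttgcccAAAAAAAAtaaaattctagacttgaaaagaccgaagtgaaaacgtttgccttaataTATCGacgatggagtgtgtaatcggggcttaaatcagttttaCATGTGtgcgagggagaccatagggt
mRpL4 promoter, 3001 bp upstream of cact, chr2L:16329133-16329283, plus strand: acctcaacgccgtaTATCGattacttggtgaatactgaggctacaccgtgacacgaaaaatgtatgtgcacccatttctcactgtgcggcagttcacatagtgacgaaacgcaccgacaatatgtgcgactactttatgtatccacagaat
bcd promoter, 5509 bp upstream of zen, chr3R:6759628-6759778, plus strand: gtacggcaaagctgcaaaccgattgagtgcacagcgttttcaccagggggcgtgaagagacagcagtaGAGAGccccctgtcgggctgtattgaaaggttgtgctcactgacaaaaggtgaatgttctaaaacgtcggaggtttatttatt
brk promoter, chrX:7307661-7307811, plus strand: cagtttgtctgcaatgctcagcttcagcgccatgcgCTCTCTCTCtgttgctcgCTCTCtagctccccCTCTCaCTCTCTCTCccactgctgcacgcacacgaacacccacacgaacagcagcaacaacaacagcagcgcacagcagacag
brk, 927 bp upstream, chrX:7306937-7307087, plus strand: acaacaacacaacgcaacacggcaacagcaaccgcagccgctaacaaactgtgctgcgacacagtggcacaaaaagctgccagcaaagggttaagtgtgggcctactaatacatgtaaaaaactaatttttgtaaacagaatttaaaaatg
brk window, inside Atg5, chrX:7320900-7321050, plus strand: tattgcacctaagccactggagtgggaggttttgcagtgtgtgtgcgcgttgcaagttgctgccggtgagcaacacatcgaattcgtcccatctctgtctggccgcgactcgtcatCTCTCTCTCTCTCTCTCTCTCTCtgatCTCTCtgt
sog intron, chrX:15619402-15619552, plus strand: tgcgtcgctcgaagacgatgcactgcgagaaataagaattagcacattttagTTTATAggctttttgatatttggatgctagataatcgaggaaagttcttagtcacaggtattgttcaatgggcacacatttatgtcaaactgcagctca
dpp intron, chr2L:2433563-2433713, plus strand: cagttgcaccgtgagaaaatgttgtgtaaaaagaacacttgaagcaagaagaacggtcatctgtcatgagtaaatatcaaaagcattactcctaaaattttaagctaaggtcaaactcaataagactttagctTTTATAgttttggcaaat
The *brk* promoter and the distal peak inside *Atg5* held long CT-rich runs, with 8 and 11 overlapping GAGAG matches within 100 bp of the summit. The *cact* promoter was AT-rich, with a run of A, a CGATA match and a CACATG match.

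**Figure D1:**
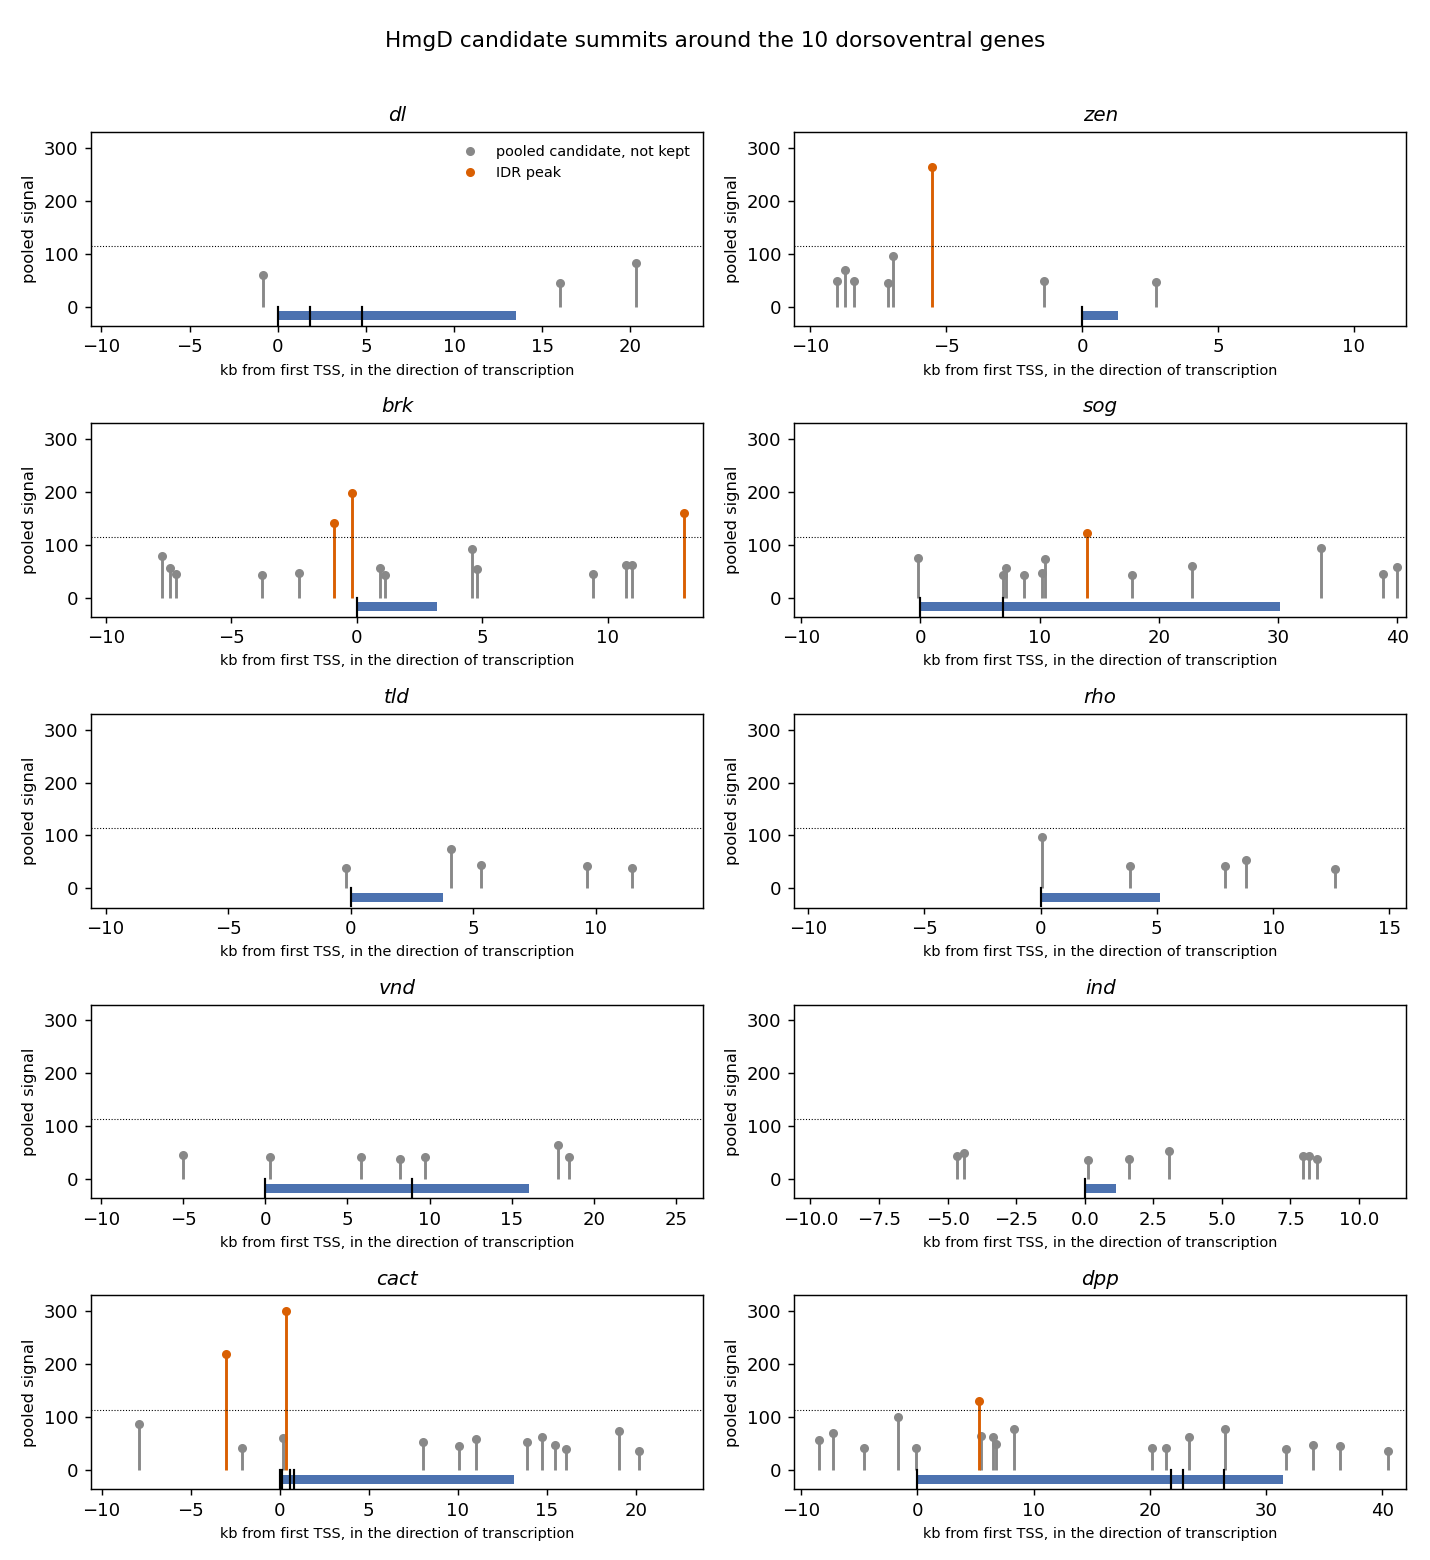
Pooled candidate summits in the window of each of the 10 genes, by distance in kb from the first TSS (x axis) and pooled signal (y axis). Orange stems are IDR peaks, grey stems are candidates not kept, the blue bar is the gene body, black ticks are TSSs and the dotted line is the lowest kept signal, 114.7; *cact* reached 301 and *brk* 198, while *dl*, *tld*, *rho*, *vnd* and *ind* had no stem above the line.

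*dl* had the emptiest window in the pooled list. In replicates 1 to 3, however, *tld* had fewer candidates (2, 3 and 3) than *dl* (3, 6 and 4). On chromosome 2L (17436830 to 17450364, minus strand), the 13535 bp body of *dl* held 0 pooled candidates and its window held 3. The median was 11 (quartiles 7 and 16) in the windows of 1124 protein-coding genes of similar body length, within 1.5 times. The strongest lay 6769 bp beyond the 3′ end of *dl*, at the TSS of *lncRNA:CR44409*, with pooled signal 81.8 (rank 5826). It was found in each replicate, at rank 5367, 8164 and 10759. Upstream of the first *dl* TSS, at 812 bp, a candidate in an exon of *lncRNA:CR46204* had signal 59.5 and ranks of 19928, 14457 and 22879, none of them near the top of a list. The remaining candidate had signal 43.8, lay at the TSS of *CG5043*, and was matched in replicate 2 alone. At the promoter of *dl* the pooled list had no candidate, and replicate 2 alone listed one (rank 9108). The nearest IDR summit to *dl* was 16105 bp from the gene, outside the window.

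*cact* had the strongest peak of the list. The gene lies on 2L (16313036 to 16326207, minus strand), and its promoter peak (16325627 to 16326030) had pooled signal 301 (rank 220). Its ranks were 270, 225 and 359 in replicates 1, 2 and 3, a mean percentile of 99.0 ± 0.224 (SD, n = 3). The summit lay in an intron, 378 bp downstream of the first of 4 *cact* TSSs and 204 bp upstream of the third. It ranked above the strongest promoter candidate of 98.4% of protein-coding genes, genes with none included. A second, weaker candidate sat 205 bp away in the 5′ untranslated region, with signal 61.7 and ranks of 12860 in replicate 2 and 5488 in replicate 3.

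The other IDR peak in the *cact* window (2L, 16329006 to 16329409) belonged by position to a neighbour. Its summit was 76 bp from the TSS of *mRpL4*, a mitochondrial ribosomal protein gene, and 3001 bp upstream of *cact*. Pooled signal was 219 (rank 632), and the replicates ranked it 618, 481 and 907 (97.7 ± 0.713). Both peaks were thus high in every replicate. The *cact* window held 14 candidates in all, against a median of 11 (quartiles 7 and 16) for 1138 genes of similar length. Replicates disagreed on several weaker ones: a candidate in the 3′ part of the gene, 10232 bp downstream of the nearest *cact* TSS, ranked 2349 in replicate 3, 24784 in replicate 2 and had no match in replicate 1. A candidate in the coding sequence of *fzy*, a cell-cycle gene that neighbours *cact*, ranked 2672 in replicate 3 and was unmatched in the other two.

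Among the genes that act dorsally, *zen*, a homeobox gene that specifies amnioserosa, had no candidate at its own promoter in the pooled list or in any replicate. Its body (3R, 6752864 to 6754194, minus strand) held no pooled candidate either. The IDR peak in its window (3R, 6759501 to 6759904) lay 237 bp from the TSS of *bcd*, the anterior determinant gene next to it, and 5509 bp upstream of *zen*. It had pooled signal 264 (rank 347), with ranks of 402, 314 and 573 in replicates 1, 2 and 3 (98.5 ± 0.433). A smaller candidate between *bcd* and *Ama*, 6944 bp upstream of *zen*, had signal 95.4 and ranked 6417, 5045 and 5227. It was found in all replicates with little spread in rank (81.0 ± 3.27) although it was not kept. The nearest candidate to the *zen* TSS was 1410 bp upstream, with signal 47.6, ranks of 11853 and 24550 in replicates 1 and 2, and none in replicate 3.

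*dpp*, the gene for the main BMP ligand of the dorsal ectoderm, had 18 candidates, the most of any member. Its body on 2L (2428372 to 2459823, plus strand) is 31452 bp, and 624 genes of similar length had a median of 13 (quartiles 7 and 19). The IDR peak (2433436 to 2433839) lay in an intron 5266 bp downstream of the first of 4 TSSs, with pooled signal 132 (rank 2241). The replicates ranked it 3918, 2442 and 2922 (89.4 ± 2.97), so it was lower than the *cact* peak in each replicate. It was among the 2964 strongest entries of replicates 2 and 3 but not of replicate 1. No IDR peak was at a *dpp* promoter, but 3 candidates were. The strongest, 111 bp downstream of TSS 4, had signal 78.4 (rank 6356). Its ranks spread from 2561 in replicate 3 to 12039 in replicate 2. It had no match in replicate 1, whose strongest candidate at any *dpp* promoter ranked 19494. The first TSS had a candidate 129 bp upstream with signal 42.0, matched in replicate 3 alone. Farther upstream, at 1655 bp, a candidate of signal 101 (rank 3824) was found in all replicates, at rank 2993, 9326 and 5534.

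*tld*, which encodes a secreted protease that cleaves Sog and releases Dpp, had 5 candidates and no IDR peak. On 3R (24749731 to 24753510, plus strand), its body held none. The promoter candidate, 177 bp upstream of the TSS, had signal 38.2 (rank 28612, near the foot of the list), and only replicate 3 listed it (rank 22700). The strongest candidate of the window (signal 75.3) was 19 bp from the TSS of *asp*, the gene downstream, and it ranked 2486 in replicate 1 with no match in replicates 2 and 3. The promoter sequence of *tld* is shown because it held 2 matches to GGGNNNNCC, the simplified Dorsal word, beside 2 to GAGAG, although HmgD signal there was near the lowest listed. Capitals mark these matches.
tld promoter, chr3R:24749479-24749629, plus strand: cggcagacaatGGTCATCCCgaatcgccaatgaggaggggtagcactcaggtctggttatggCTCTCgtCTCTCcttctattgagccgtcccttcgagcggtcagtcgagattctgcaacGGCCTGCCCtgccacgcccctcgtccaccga
Of all candidates not kept, 15.3% held the Dorsal word, as did 10.1% of IDR summits, so its presence at *tld* says nothing on its own.

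*brk* had the densest set of peaks in the neuroectodermal class. It encodes a repressor of BMP target genes and lies on X (7307939 to 7311132, plus strand) within the annotated spans of *CG1677* and *lncRNA:CR44357*. Its window held 15 candidates, above the upper quartile of 13 for 3476 genes of similar length (median 9), and 3 of them were IDR peaks. Between neighbouring candidates there, 5 gaps were of at most 300 bp, the most of any member, so close summits add to the count. Close candidates were not merged, here or in the genes compared. The promoter peak (7307534 to 7307937), with its summit 203 bp upstream of the TSS, had signal 198 (rank 849), and the replicates ranked it 1715, 728 and 576 (96.5 ± 2.27). It was high in every list, and ranked above the strongest promoter candidate of 93.9% of protein-coding genes. The peak 927 bp upstream (7306810 to 7307213) had signal 141 (rank 1946) and ranks of 477, 2077 and 10053 (86.0 ± 17.1). There replicate 1 was the highest and replicate 3 the lowest, the reverse of their order at the promoter.

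The third peak of the *brk* window (7320773 to 7321176; signal 159, rank 1469) lay 13036 bp downstream of the TSS, in an intron of *Atg5*, an autophagy gene. At 9843 bp from the gene body it was just inside the 10 kb limit, and the next IDR summit was outside, at 14143 bp. Its mutually nearest candidates ranked 9928, 11594 and 607 (74.7 ± 20.2). Replicate 3 alone had it near the top by this match. Replicate 2, however, had a second summit 104 bp from the pooled one that ranked 1212, against 96 bp for the matched one. With the strongest candidate within 200 bp taken in its place, a choice made after the data were seen, the mean was 86.2 ± 18.6 and replicate 1 alone was low.

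*sog*, the gene for the secreted BMP antagonist Short gastrulation, had 12 candidates in its window (X, 15603283 to 15633434 for the body, minus strand), and genes of similar length had a median of 13. Its IDR peak (15619275 to 15619678) was intronic, 7063 bp downstream of the second TSS and 13957 bp downstream of the first. Signal was 121 (rank 2658), close to the lowest kept value, and the ranks were 2639, 9307 and 3736 (82.4 ± 11.7). Replicate 2 stood lowest here. Whichever replicate was left out, the peak was not among the 2964 strongest entries of both others. At the *sog* promoters 3 candidates were listed and none was kept. The strongest, 180 bp upstream of the first TSS, had signal 75.2 (rank 6975), with ranks of 6487 in replicate 1 and 5388 in replicate 3 and no match in replicate 2. Its sequence is shown because, like the *brk* promoter, it is CT-rich, with 15 overlapping GAGAG matches within 100 bp of the summit, the most at any of the 8 IDR summits or the members' promoter candidates. Capitals mark those within the 151 bp shown.
sog promoter, chrX:15633539-15633689, plus strand: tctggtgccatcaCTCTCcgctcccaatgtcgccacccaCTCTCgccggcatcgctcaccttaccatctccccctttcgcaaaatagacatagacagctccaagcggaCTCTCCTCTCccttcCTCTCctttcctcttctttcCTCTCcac
In the intergenic sequence 3461 bp beyond the 3′ end of *sog*, a candidate of signal 92.8 ranked 11682, 2584 and 10672, and replicate 2 was the highest there.

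*rho* encodes the intramembrane protease Rhomboid, which releases EGF receptor ligands, and lies on 3L (1463811 to 1468944, plus strand) inside the span of *Ptp61F*. It had no IDR peak, and the nearest was 47248 bp away, the greatest distance among the members. Its promoter candidate, 59 bp downstream of the TSS in the 5′ untranslated region, was the strongest promoter candidate among members without an IDR peak there, with signal 96.3 (rank 4192). It ranked 2333 in replicate 1 and 3605 in replicate 3 and had no match in replicate 2, whose own promoter candidate ranked 16637. In replicate 1 it was among the 2964 strongest entries. Of the other 4 candidates, signals ran from 37.6 to 54.2.

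*vnd* and *ind*, homeobox genes that define the ventral and intermediate columns of the neuroectoderm, had the weakest best candidates of the 10. *vnd* (X, 582121 to 598151, plus strand) had 7 candidates against a median of 12 for genes of similar length. The strongest, 1776 bp beyond its 3′ end, had signal 65.1 (rank 9629) and ranks of 24112, 7532 and 14032 (47.5 ± 30.6). The *vnd* promoter candidate had signal 41.8 and was matched in replicate 3 alone. *ind* (3L, 15042799 to 15043924, minus strand) had 8 candidates against a median of 7. Its strongest, with signal 52.8 (rank 15244), ranked 12036, 28377 and 24249 (27.3 ± 26.9), and the promoter candidate in its coding sequence had signal 37.4, matched in replicate 3 alone (rank 18636). At both genes the replicates differed by a large part of the list, so neither candidate had a stable position. The nearest IDR summits were 19482 bp from *vnd* and 28458 bp from *ind*.

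**Figure D2:**
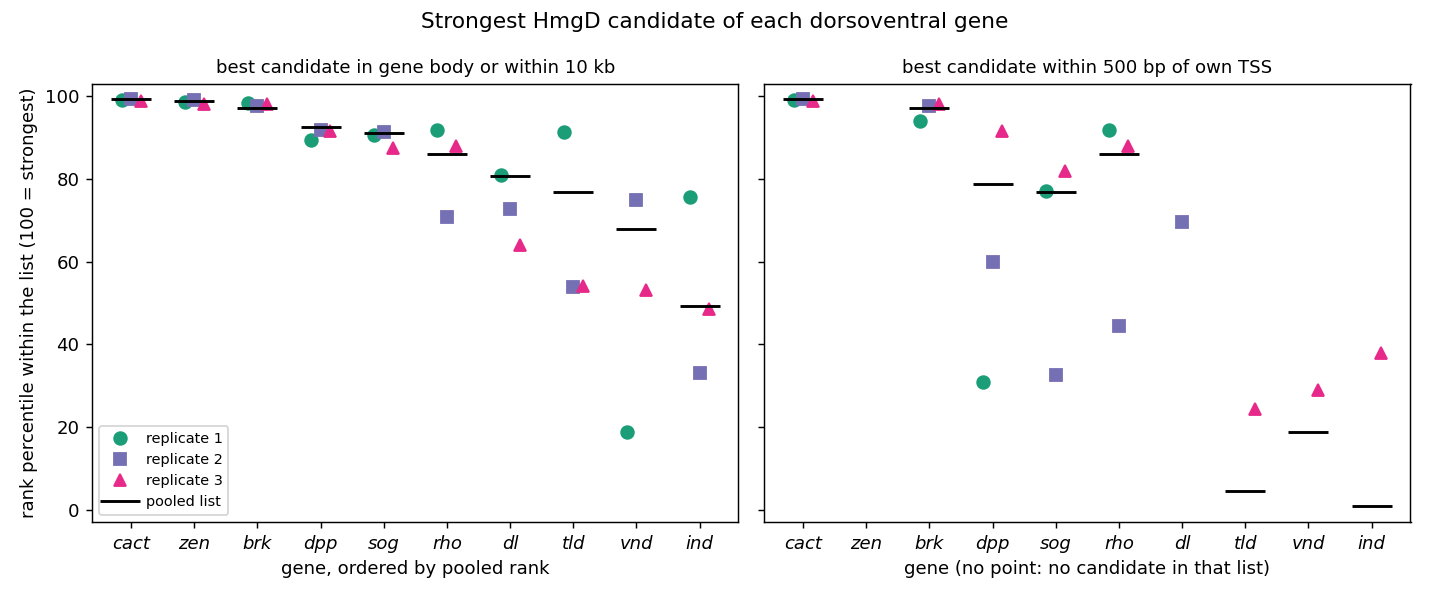
Rank percentile (y axis, 100 is strongest) of the strongest candidate of each gene, in its window (left) and at its own promoter (right), for replicates 1 to 3 (points) and the pooled list (bars). In the left panel *cact*, *zen* and *brk* lie above 97 in every replicate and the points of *tld*, *vnd* and *ind* are widely scattered; *zen* has no point at its promoter, and *dl* has 1, from replicate 2.

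Taking the strongest candidate in each window of each replicate, whichever it was, gave an order of the genes by mean. *cact* (mean percentile 99.0 ± 0.224, n = 3), *zen* (98.5 ± 0.433) and *brk* (98.0 ± 0.376) formed the top, and the lowest value among them, 97.6, exceeded the highest of any other member, 91.9. *dpp* (90.9 ± 1.33) and *sog* (89.9 ± 2.04) followed and overlapped. *rho* (83.5 ± 11.2), *dl* (72.6 ± 8.41) and *tld* (66.4 ± 21.5) had overlapping ranges, and so did *ind* (52.4 ± 21.6) and *vnd* (49.0 ± 28.3). The ranges of *rho* (70.7 to 91.7) and *tld* (53.8 to 91.2) also reached those of *dpp* and *sog*. That of *dl* (64.1 to 81.0) reached those of *ind* and *vnd*, so only *cact*, *zen* and *brk* stood apart. The value of *zen* rested on the peak at *bcd*. Only at *cact*, *zen* and *dl* did the strongest candidates of all 3 replicates lie within 200 bp of each other. For *dpp* they lay at 2426672, 2433645 and 2454817 in replicates 1, 2 and 3. A small SD there is thus not agreement on a site, and *sog* and *brk* also changed site in 1 replicate. A longer window has more chances to hold a strong candidate, and the part of gene length in this order was not tested.

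Set against all protein-coding genes, the best candidate of the *cact* window ranked above that of 92.6% of genes, that of *zen* above 88.5% and that of *brk* above 75.3%. *dpp* at 51.9% and *sog* at 47.6% were near the middle. The values for *rho*, *dl*, *tld*, *vnd* and *ind* were 35.5%, 29.0%, 26.0%, 20.9% and 15.3%, all in the lower part. At promoters the same comparison gave 98.4% for *cact*, 93.9% for *brk*, 75.9% for *rho*, 69.3% for *dpp* and 67.5% for *sog*. It gave 47.5% for *vnd*, 44.9% for *tld* and 44.2% for *ind*, while *dl* and *zen* had no pooled promoter candidate. Genes without a promoter candidate were counted as ranked below. Promoter and window values are not comparable, since 56% of protein-coding genes had a promoter candidate at all.

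**Figure D3:**
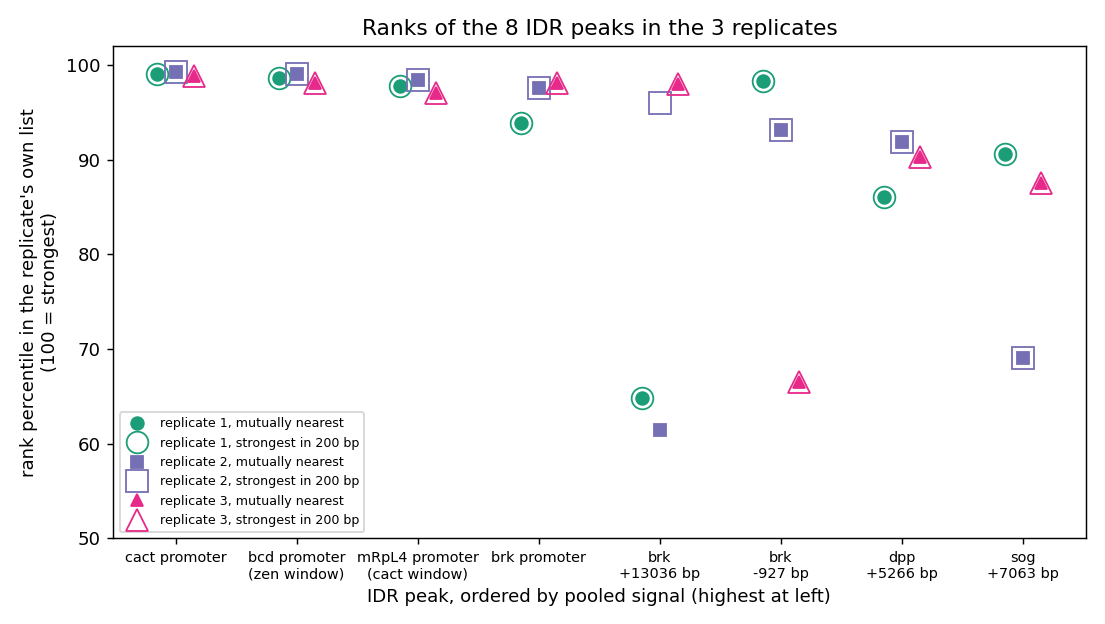
Rank percentile in each replicate's list (y axis) of the 8 IDR peaks, ordered by pooled signal from left to right. Filled symbols are the mutually nearest candidate within 200 bp and open symbols the strongest within 200 bp; the first 4 peaks lie above 93 in every replicate, and each of the peaks at brk +13036, brk -927 and sog has at least 1 replicate below 70.

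All 8 IDR summits were matched in all 3 replicates. Their median percentile was 95.9, 95.3 and 97.5 in replicates 1, 2 and 3, a mean of 96.2 ± 1.12, beside 94.7 ± 0.207 for all IDR summits. Since the IDR list came from the same replicates, such high ranks are in part built in. Among the 8, the *cact*, *mRpL4*, *bcd* and *brk* promoter peaks, all at a TSS, were among the 2964 strongest entries of every replicate, which is 50% beside 42.4% of all IDR peaks. The peaks away from a TSS, at *dpp*, *sog* and the other *brk* positions, each fell below that level in at least 1 replicate. The peaks at a TSS also had the higher pooled signals, 198 to 301, beside 121 to 159 for the others. Position and signal therefore cannot be told apart here.

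Each replicate's own 2964 strongest entries gave a similar count of genes. They placed 10, 8 and 9 summits in the windows of replicates 1, 2 and 3 (9 ± 1). In replicate 1 they lay in the windows of 6 members (*zen*, *brk*, *sog*, *tld*, *rho* and *cact*), beside 53.8% of all genes and 57.8% of protein-coding genes. Replicate 2 had 5 (*zen*, *brk*, *sog*, *cact* and *dpp*), beside 50.9% and 54.1%. Replicate 3 had 4 (*zen*, *brk*, *cact* and *dpp*), beside 50% and 53.1%. *zen*, *brk* and *cact* were thus common to all replicates, and *sog*, *dpp*, *tld* and *rho* changed from one to another. At promoters the counts were 3, 2 and 3, beside 16.7%, 14.9% and 13.8% of all genes and 20.5%, 17.9% and 16.6% of protein-coding genes. *brk* and *cact* were in each, *rho* was added in replicate 1 and *dpp* in replicate 3.

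**Figure D4:**
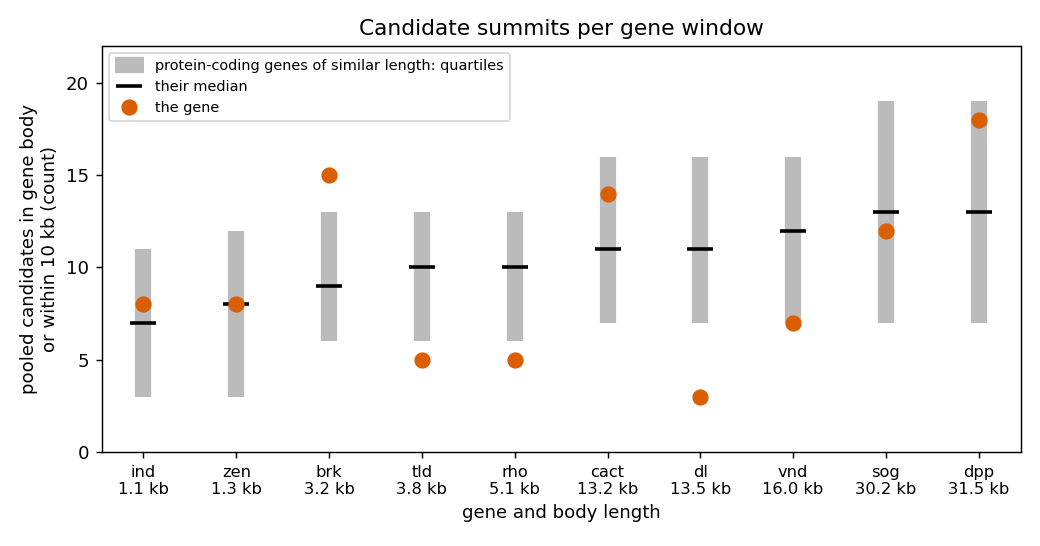
Number of pooled candidates in the window of each gene (orange points, y axis), with genes ordered by body length (x axis). Grey bars span the quartiles and black bars mark the median of protein-coding genes of similar length; *brk* with 15 lies above its bar, and *dl* with 3, *tld* with 5 and *rho* with 5 lie below theirs.

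Counting every candidate, the windows held 2.98 per 10 kb, beside 2.24 over the arms, and 0.251 IDR summits per 10 kb beside 0.221. The windows are centred on genes and the arms were counted whole, so no excess is read from these densities. Beside protein-coding genes of similar length, *dl*, *sog*, *tld*, *rho* and *vnd* held fewer candidates than the median. *zen* held as many as the median, and *brk*, *ind*, *cact* and *dpp* held more. The candidates in the windows were not strong, with a median signal of 48.5 beside 53.2 for the pooled list. All 10 members had at least 1 pooled candidate in the window, where 90.5% of all genes and 91.9% of protein-coding genes did. At the promoter 8 of 10 had one, all but *dl* and *zen*, beside 49.8% of all genes and 56% of protein-coding genes. Those of *tld*, *vnd* and *ind* had low signals (38.2, 41.8 and 37.4) and were matched in replicate 3 alone. The genes compared were not matched for number of TSSs, and *cact* and *dpp* have 4 each, so no excess is read. Of the 95 candidates, 31 lay in the member's body, 13 at its own promoter and 17 at a promoter of another gene. Matches in all 3 replicates were found for 18 of 95 (18.9%), beside 24.5% of all pooled candidates, and 7 of 95 had no match in any replicate. A candidate without a match within 200 bp may still have a weaker or shifted neighbour in that replicate, as at the *rho* promoter.

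The IDR summits in the windows were placed at a promoter in 4 cases and in an intron in 4, where 71.1% of all IDR peaks were at a promoter. With 8 summits no difference from that share can be read. The promoter cases were *cact*, *brk*, *mRpL4* and *bcd*. The *sog* and *dpp* summits lay in the member's own intron. The other *brk* summits lay outside *brk*, in introns of genes that span them, such as *CG1677* and *Atg5*. Among the 87 candidates not kept, 36 were intronic, 26 at a promoter, 10 in coding sequence and 9 intergenic. The GC content of the 201 bp around the 8 summits had a median of 42% (range 34.8% to 57.7%), beside 41.8% for all IDR summits and 48.3% for all candidates not kept. The members' own candidates that were not kept had a median of 48.3%.

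Words of the dorsoventral factors were counted at the 8 IDR summits beside the share over all IDR summits. Searching both strands of the 100 bp to either side of each summit, CAGGTAG for Zelda, the factor that opens early embryonic chromatin, was at 0 of 8, beside 0.911% of all IDR summits and 1.43% of candidates not kept. GGGNNNNCC for Dorsal was at 1 of 8, the distal *brk* peak, beside 10.1%. CACATG for Twist was at 1, the *cact* promoter, beside 8.57%. CAGGTG for Snail was at 0 beside 6.95%, and GGCGCC for Brinker at 0 beside 5.74%. Among the 87 candidates not kept, the counts were 3, 11, 7, 8 and 8 in the same order, beside 1.43%, 15.3%, 10.1%, 10.9% and 5.97% of all candidates not kept. A missing word says only that these letters were not in the window.

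Words of insulator and core promoter factors were searched in the same way. GAGAG was at 4 of 8, beside 29.6% of all IDR summits, at the *bcd*, *brk* and *cact* promoters and the distal *brk* peak. CGATA for BEAF was at 2, the *cact* and *mRpL4* promoters, beside 39%. TATCGATA for DREF, which contains CGATA, was at 0 beside 8.16%, GGTCACAC for promoter Motif 1 at 0 beside 7.15%, and AGGTGGCGC for CTCF at 0 beside 1.69%. TATAAA was at 3, beside 19.3%, and AAAAAAA was at 1, the *cact* promoter, beside 16.8%. With 8 summits these counts were too few to place above or below the list as a whole.

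**Figure D5:**
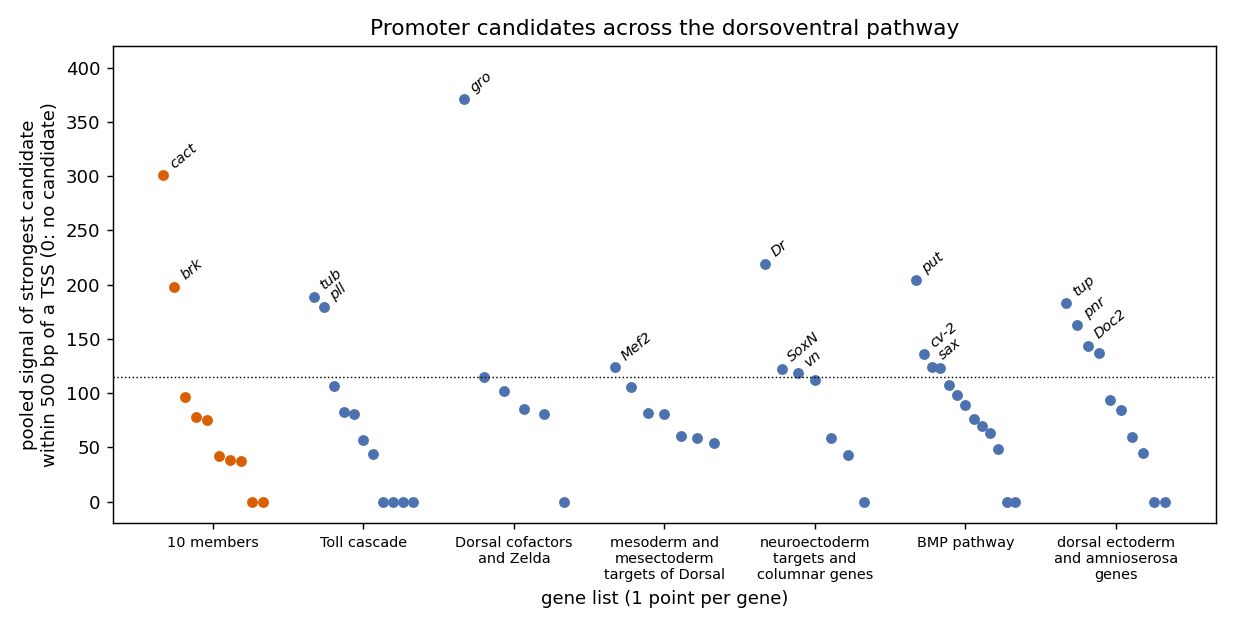
Pooled signal of the strongest candidate within 500 bp of a TSS (y axis), 1 point per gene, for the 10 members (orange) and 6 lists of other pathway genes (blue); 0 means no candidate. The dotted line is the lowest kept signal, and up to 3 genes above it are named per list; *gro* at 371 and *cact* at 301 are highest.

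The rest of the pathway, 54 genes in 6 lists, placed the members in context. An IDR peak was at the promoter of 15 of the 54 (27.8%, beside 18.7% of protein-coding genes) and in the window of 37 (68.5%, beside 55.2%). The genes compared were not matched for body length or number of TSSs, so no excess is read from these shares. In the Toll cascade, which acts upstream of Dorsal, 2 of 11 had a promoter peak: *tub*, an adaptor (signal 189), and *pll*, a kinase (signal 179), whose peak also lay at the TSS of *TfIIA-L*. Of the Dorsal cofactors and Zelda, 1 of 6 did, *gro*, the corepressor that Dorsal recruits at repressed targets (signal 371, rank 112, ranks 123, 89 and 340 in the replicates). The *zld* promoter candidate, at 114.5, was just below the lowest kept signal.

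Among the mesodermal and mesectodermal targets of Dorsal, 1 of 7 had a promoter peak, *Mef2*, a muscle regulator (signal 124), with ranks of 5981, 1657 and 15779. The neuroectodermal and columnar list had 3 of 7. These were *Dr*, the homeobox gene of the dorsal column next to those of *vnd* and *ind* (signal 219), *SoxN*, a neural factor (122.5), and *vn*, an EGF receptor ligand (118). Thus *Dr* had a promoter peak and *vnd* and *ind* did not. In the BMP pathway, in which *dpp*, *tld* and *sog* act, 4 of 13 did, led by the receptor gene *put* (signal 204), whose peak lay also at the TSS of *His4r*, then *cv-2*, an extracellular BMP modulator (136), and the receptor gene *sax* (124), whose peak lay also at the TSS of *Nop17l*. Of the dorsal ectoderm and amnioserosa genes, 4 of 10 did, led by the transcription factor genes *tup* (183), *pnr* (163) and *Doc2* (144). Several of these varied between replicates: *tup* ranked 15534, 534 and 1296, and *cv-2* ranked 25276, 1583 and 1620, with replicate 1 the lowest in both.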

How the data were processed

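Per the labels, HmgD chromatin immunoprecipitation was done on sonicated chromatin of 200 to 800 bp fragments. The deposited narrowPeak files on dm6 give the authors' signal and a −log10 q value for each peak. The −log10 q was read but not used. The deposited file descriptions state that the candidate lists include background entries and were made against a control, and the pooled list came from all replicates together. The sources used here do not name the aligner, the peak caller or the IDR threshold. The dm3 lists were not used.

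Summits were placed on Ensembl 115 genes, with a window of 10 kb around the gene body and a promoter of 500 bp either side of a TSS. A replicate summit was matched to a pooled one if each was the other's nearest, at up to 200 bp. Values are given as mean and SD over 3 replicates, and no test was possible with 1 group. The files hold no read counts, so depth and its precision are unknown. Word searches covered 100 bp to each side of a summit. *wind* and *WntD* were matched through RefSeq synonyms. Scripts (Python 3.11.15, pandas 2.3.3, numpy 2.4.6) were tested on simulated data.

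The members and lists were chosen with earlier results of these data known. The genes named are all members, genes at or around their IDR summits, and up to 3 genes per pathway list with the strongest IDR promoter peak. Neighbours of candidates that were not kept, *zld*, and the positions of those candidates were named after their values were seen. Alternatives covered windows, promoter widths, match rules, peak thresholds and left-out replicates.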

Additional observations from a re-analysis of the deposited data

How the results depend on the processing

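The count of 2 members of 10 with a promoter peak was the same under every promoter width and alternative peak set run here, while the share of all genes moved. The promoter peaks of *cact* and *brk* ranked 220 and 849 in the pooled list. Each replicate's own 2964 strongest entries gave 3, 2 and 3 members. With a promoter of 250 or 1000 bp to either side that share was 12.9% or 18.4%. It was 8.53% with the stronger 1482 IDR peaks, 7.47% in the consensus of 1297 candidates, and 9.28%, 8.86% and 10.5% without replicates 1, 2 and 3, beside 15.5% in the report. Members with an IDR summit in the window (5, beside 51.7% of all genes) became 3 with the gene body only (7.6%), 4 with 5 kb (39%) and 8 with 20 kb (66.5%). They became 3 with the stronger peaks (33.9%), 3 in the consensus (31.1%), 4 without replicate 1 (36.8%), 3 without replicate 2 (35.2%) and 3 without replicate 3 (40.4%). The 8 IDR summits became 3 with the gene body only, 6 with 5 kb, 15 with 20 kb, 4 in the consensus and 5 with the stronger peaks. They became 6, 4 and 5 without replicates 1, 2 and 3. The 95 pooled candidates became 31 in the gene bodies, 67 with 5 kb and 150 with 20 kb. These counts come from shorter or longer windows and from smaller peak sets. The median rank percentile was 96.2 to 96.7 under the match rules tried, including the strongest candidate within 200 bp, which was chosen after seeing the data. It was 95.6 to 96.7 with a replicate left out of the mean, for the same 8 IDR summits.

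No paired analysis was possible because the series has 1 group and no test. Depth is unknown, candidate lists include background, and control data were not used, so weak candidates cannot be told from background.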
